A study of Mus musculus with 82 samples.

Results

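The direct comparison of 2 activators of AMP-activated protein kinase (AMPK), 991 and AICAR, was examined in wild-type (WT) primary mouse hepatocytes. It rests on 20 of the 82 arrays of the series: 10 arrays of WT hepatocytes exposed to 991 at 3 µM for 4 h and 10 arrays of WT hepatocytes exposed to AICAR at 300 µM for 4 h. Each set of 10 holds 2 cell preparations with 5 technical replicates each, and the compounds were compared within a preparation after the 5 arrays were averaged. The doses differ between the compounds, so the values below compare these treatments and not equal doses.

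AMPK is a kinase made of a catalytic α subunit and regulatory β and γ subunits that is switched on when cellular energy runs low, and in the liver it is known for restraining lipid and glucose production. The compound 991 binds the enzyme itself, at a site between the α and β subunits. AICAR is a nucleoside that enters cells through adenosine transporters and is phosphorylated to ZMP, a mimic of AMP that binds the γ subunit. ZMP is also an intermediate of purine synthesis and can act on other AMP-binding enzymes, so gene changes after AICAR need not pass through AMPK.

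All cells came from the C57BL/6 background. Hepatocytes were isolated by collagenase perfusion, attached to collagen, and kept overnight in medium with dexamethasone before treatment. Every hepatocyte group, vehicle included, therefore carried dexamethasone, a glucocorticoid. Besides the 20 arrays, 10 arrays of WT hepatocytes with vehicle (DMSO), 20 arrays of 991 or AICAR in hepatocytes lacking both catalytic subunits (AMPK alpha1-/- alpha2-/-, called dKO) with their 9 vehicle arrays, and 7 arrays of 991 (10 µM) or AICAR (2 mM) in WT mouse embryonic fibroblasts (MEFs) were used where named. The labels call the preparations biological replicates but do not give the number of mice or how the dKO cells were made.

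Levels are log2 intensities, so a difference of 1 is a doubling. They are given first for preparation 1 and then for preparation 2. Differences are 991 minus AICAR on the log2 scale with their standard error (SE), and a gene is called when its limma p, adjusted over 18193 genes, is below 0.05. Each probe set has its own brightness, so levels are compared between treatments and not between genes. Prkaa1, which encodes AMPKα1, stood at 5.27 and 5.29 with 991 and 5.46 and 5.15 with AICAR in WT cells, and at 4.46 and 4.59 with 991 and 4.69 and 4.59 with AICAR in dKO cells. Prkaa2, for AMPKα2, stood at 9.74 and 9.60 with 991 and 9.72 and 9.59 with AICAR in WT cells, and at 9.57 and 9.62 with 991 and 9.46 and 9.65 with AICAR in dKO cells, so its probe set does not separate the genotypes. The deleted parts are not given in the sources used here, and a probe set outside them checks nothing. The medians of the 20 arrays ran from 5.90 to 6.08. The highest was that of technical replicate 3 of preparation 2 with 991, next to 6.03 on another 991 array, and without it 3340 genes were called.

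Between 991 and AICAR, 3415 of 18193 genes differed (18.8%), 1646 higher (9.05%) and 1769 lower (9.72%) with 991. Most differences were small, with a median size of 0.31 among called genes, and 266 genes were higher and 202 lower by at least 1.5-fold. Over all 18193 genes the differences in preparations 1 and 2 had a Pearson r of 0.780, as a description across genes. Without preparation 1 of the WT cells 1296 genes were called, and without preparation 2 it was 2010, with 2 residual degrees of freedom in place of 4. Against vehicle, 991 changed 1105 genes (6.07%) and AICAR 3002 (16.5%) in the same WT cells. The contrasts with vehicle share arrays with each other and with the direct comparison, so their values are set side by side only.

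Genes were chosen by size among those with a mean hepatocyte level above the median of all genes (6.87), predicted genes left out. The 12 with the largest excess under 991 combine stress genes, chemokine genes and long non-coding RNAs. Neat1, the RNA scaffold of nuclear paraspeckles, had the widest gap, with levels of 13.00 and 13.18 with 991, 10.12 and 9.46 with AICAR, and 12.54 and 12.84 with vehicle. It was 9.87-fold higher with 991 (3.30 ± 0.19, adjusted p = 1.24e-06), and the arrays nearest to each other were the lowest with 991 at 12.92 and the highest with AICAR at 10.20. The Neat1 level with 991 lay near that with vehicle (0.40 ± 0.19, adjusted p = 0.241), whereas AICAR lowered it (-2.90 ± 0.19). A second, dimmer probe set of Neat1 differed by -0.09 only.

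Dancr, another long non-coding RNA, had levels of 8.91 and 8.93 with 991, 6.03 and 6.32 with AICAR, and 8.85 and 9.01 with vehicle. It differed by 2.74 ± 0.12 (adjusted p = 2.39e-07), and against vehicle AICAR lowered it (-2.76 ± 0.12) while 991 did not pass the test (adjusted p = 0.968). Tmem186, a gene for a mitochondrial membrane protein, had levels of 8.12 and 8.03 with 991, 6.12 and 5.96 with AICAR, and 7.84 and 7.84 with vehicle. Its difference of 2.04 ± 0.15 was that of 1 of 4 probe sets, and the other 3 differed by 0.11 to 0.25. Clec2d, which encodes a lectin-like ligand of natural killer cell receptors, differed by 2.13 ± 0.17, with 991 above vehicle (0.97 ± 0.17) and AICAR below it (-1.16 ± 0.17).

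Another set of these 12 genes was higher with 991 than with either AICAR or vehicle. Hilpda, a lipid droplet protein that inhibits adipose triglyceride lipase, had levels of 10.46 and 10.76 with 991, 9.04 and 8.91 with AICAR, and 9.01 and 8.83 with vehicle. It was 3.11-fold higher with 991 than with AICAR (1.64 ± 0.12, adjusted p = 5.99e-06), and AICAR differed from vehicle by 0.05 ± 0.12. Snai2, a transcriptional repressor, was at 8.90 and 9.19 with 991, 7.52 and 7.19 with AICAR, and 7.72 and 7.60 with vehicle, a difference of 1.69 ± 0.12 between the compounds. Grpel2, a cofactor of the mitochondrial chaperone Hspa9, differed by 1.49 ± 0.10, with 991 at 1.30 ± 0.10 over vehicle and AICAR at -0.19 ± 0.10 (adjusted p = 0.234).

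The widest gap among genes lower with 991 was that of H3f3b, one of the genes for the replication-independent histone H3.3. It stood at 6.37 and 6.19 with 991, 10.37 and 10.66 with AICAR, and 6.52 and 6.17 with vehicle, an 18.9-fold difference (-4.24 ± 0.20, adjusted p = 3.04e-07). AICAR raised it over vehicle (4.17 ± 0.20) and 991 did not pass the test (adjusted p = 0.857), on the single probe set that stands for the gene here. With 991 and vehicle this probe set lay below the median level of all genes (6.87). It met the rule on level only through its arrays with AICAR. Ppp1r10, a regulatory subunit of protein phosphatase 1 in the nucleus, had levels of 7.18 and 7.03 with 991, 8.26 and 8.45 with AICAR, and 7.27 and 7.16 with vehicle (-1.25 ± 0.08).

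A further group was lowered by 991 and raised by AICAR, each relative to vehicle. Ahr, the aryl hydrocarbon receptor, was at 9.65 and 9.43 with 991, 11.02 and 10.88 with AICAR, and 10.46 and 10.55 with vehicle. The compounds differed by -1.41 ± 0.08 (adjusted p = 1.24e-06), with -0.97 ± 0.08 for 991 and 0.45 ± 0.08 for AICAR against vehicle, and a dim second probe set differed by -0.18. Amotl2, a junction protein that binds the Hippo pathway effector YAP, stood at 8.85 and 8.74 with 991, 10.28 and 10.04 with AICAR, and 9.77 and 9.52 with vehicle (-1.37 ± 0.05). Dact1, an antagonist of Wnt signalling (-1.68 ± 0.11), and the protein kinase gene Sbk1 (-1.41 ± 0.13) had the same order of the 3 treatments. All 24 genes had arrays that did not overlap between the compounds within either preparation, a state found in 6.89% of all genes in each direction. Size chose the 24 among genes above the median level. By the same rule the next genes were Zfp945 (1.46 ± 0.08) and Nat8f4 (1.43 ± 0.06) on the higher side. On the lower side they were Rasgef1b (-1.22 ± 0.11) and Proser2 (-1.21 ± 0.17). Cyp7a1 (-1.64), at a mean level of 6.33, lay below the median level and could not enter by size.

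**Figure D1:**
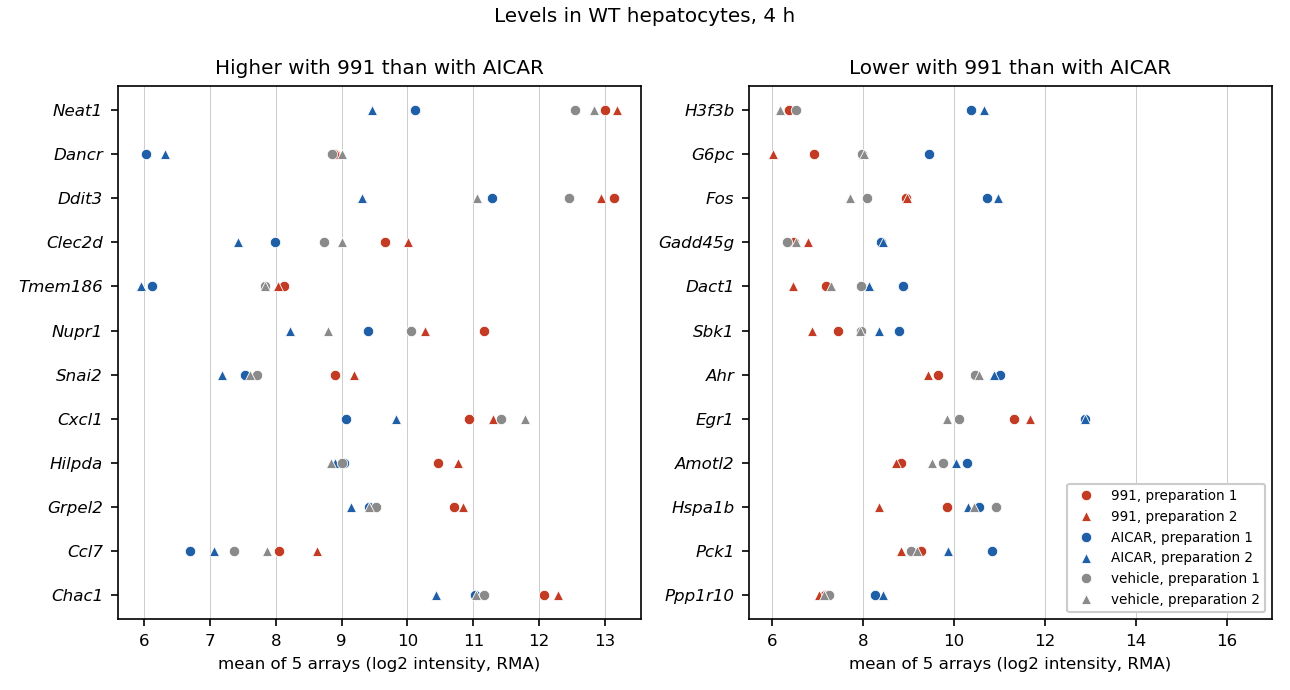
Levels in WT hepatocytes of the 24 genes chosen by size above the median level. Values are means of 5 arrays in log2 intensity (x axis), for 991, AICAR and vehicle in preparations 1 (circles) and 2 (triangles). Neat1, Dancr and Tmem186 lie near vehicle with 991 and far below it with AICAR, Hilpda, Snai2 and Grpel2 lie higher with 991 than with AICAR or vehicle, and H3f3b stands at 10.37 and 10.66 with AICAR against 6.17 to 6.52 elsewhere.

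Genes of the integrated stress response were higher with 991 than with AICAR. This response, run by the transcription factor ATF4, is switched on when translation initiation is throttled, and it raises amino acid transport, serine synthesis and, on lasting stress, genes of cell death. Of 23 measured members 12 were higher, 1 was lower (Shmt2, mitochondrial serine hydroxymethyltransferase, -0.53 ± 0.06) and 10 were not called, with a median difference of 0.34 against -0.0013 over all genes. The mean level over the 23 genes was 10.76 and 10.75 with 991, 10.40 and 10.12 with AICAR, and 10.54 and 10.30 with vehicle. Against vehicle, 991 raised 6 and lowered 1 of them, and AICAR raised 3 and lowered 11, where 3.72% and 2.36% of all genes rose and fell with 991 and 8.51% and 7.99% with AICAR.

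Ddit3, which encodes the pro-apoptotic transcription factor CHOP, was at 13.14 and 12.93 with 991, 11.29 and 9.30 with AICAR, and 12.46 and 11.06 with vehicle. The 10 arrays with 991 ran from 12.79 through a median of 13.08 to 13.24, and those with AICAR from 9.21 through 10.31 to 11.52, so the compounds did not overlap, although the AICAR preparations lay 2 units apart. The difference was 2.74 ± 0.29 (6.68-fold, adjusted p = 8.06e-05), with 1.28 ± 0.29 for 991 (adjusted p = 0.0246) and -1.46 ± 0.29 for AICAR (adjusted p = 0.00589) against vehicle. A second, dimmer probe set of Ddit3 differed by 1.43 in preparation 1 and by -0.10 in preparation 2 (mean 0.66). It averaged 9.70 with 991, 9.04 with AICAR and 8.43 with vehicle, so AICAR did not lie below vehicle there.

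Nupr1, a small stress-induced chromatin protein, had levels of 11.16 and 10.27 with 991, 9.40 and 8.21 with AICAR, and 10.06 and 8.79 with vehicle. Within each preparation all 991 arrays were above all AICAR arrays, and the difference was 1.91 ± 0.08 (3.75-fold, adjusted p = 2.11e-07). Chac1, which degrades glutathione, was at 12.08 and 12.29 with 991, 11.02 and 10.43 with AICAR, and 11.16 and 11.04 with vehicle (1.46 ± 0.19, adjusted p = 0.000292). For Chac1 it was 991 that differed from vehicle (1.08 ± 0.19, adjusted p = 0.00621), while AICAR was at -0.37 ± 0.19 (adjusted p = 0.204). Slc7a11, the cystine transporter, showed the other arrangement, with 8.19 and 8.55 with 991, 7.26 and 7.63 with AICAR, and 8.27 and 8.68 with vehicle (0.93 ± 0.07, adjusted p = 9.62e-06).

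The promoters of Chac1, Nupr1 and Slc7a11 are shown because these members of the list were all higher with 991 than with AICAR and each holds the core of the element bound by ATF4 with CHOP or C/EBP partners. The letters TGATGNAA were searched on both strands in the 250 bases before each annotated start (RefSeq, GRCm38.p6), and matches are in capitals in these stretches of 100 bases, given on the strand of the gene, from chr2:119351003-119351102 (plus strand), chr7:126625527-126625626 (minus strand) and chr3:50443617-50443716 (minus strand).
Chac1: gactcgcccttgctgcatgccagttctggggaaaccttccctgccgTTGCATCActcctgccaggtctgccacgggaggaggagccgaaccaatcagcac
Nupr1: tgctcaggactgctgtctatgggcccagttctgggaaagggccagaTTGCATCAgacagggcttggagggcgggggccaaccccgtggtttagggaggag
Slc7a11: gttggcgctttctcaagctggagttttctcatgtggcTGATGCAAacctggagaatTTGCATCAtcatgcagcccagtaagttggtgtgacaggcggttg
The first match began 193, 110 and 66 bases before the start in Chac1, Nupr1 and Slc7a11, and Slc7a11 holds 2 matches in opposite orientations. The motif was in 6 of 24 promoters of the list (25%), those of Asns, Atf3, Chac1, Nupr1, Slc7a11 and Vldlr, and in 3.45% of 32851 mouse promoters. The match is a description of the letters and not a binding site.

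The unfolded protein response, which adds chaperones and folding enzymes to the endoplasmic reticulum, was higher with 991 in 10 of 20 measured genes and lower in none, with a median of 0.23. Ern1, the gene of the stress sensor IRE1α, was at 10.75 and 10.88 with 991, 9.94 and 9.29 with AICAR, and 10.12 and 9.94 with vehicle (1.20 ± 0.13, adjusted p = 0.000103). Its 4 other, dimmer probe sets differed by 0.03, 0.04, 0.24 and 1.36. Creld2, a disulfide isomerase of this compartment, was at 12.09 and 10.11 with 991, 10.68 and 9.92 with AICAR, and 12.04 and 10.20 with vehicle. Its difference of 0.80 ± 0.22 (adjusted p = 0.0268) was large in preparation 1, where 991 and vehicle were high, and small in preparation 2.

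Pdia4 (0.77 ± 0.18) and Sdf2l1 (0.73 ± 0.21), also folding factors, had the same arrangement, and the mean difference over the list was 0.48 in preparation 1 and 0.17 in preparation 2. Without preparation 1 only 3 members were called higher and 1 lower, without preparation 2 it was 15 higher, and with no intensity trend of the prior variance 4 were called. Against vehicle, 991 raised 1 of the 20 genes, and AICAR raised 1 and lowered 8. The promoter of Creld2 is shown for the bipartite element of this response, CCAAT and CCACG with 9 bases between them, searched on both strands, from chr15:88819479-88819578 (plus strand, RefSeq, GRCm38.p6), with the match in capitals.
Creld2: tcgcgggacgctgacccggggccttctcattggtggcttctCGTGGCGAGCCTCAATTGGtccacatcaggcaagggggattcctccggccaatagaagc
It began 126 bases before the start. The motif was in 8 of 17 promoters of this list (47.1%) and in 0.113% of all promoters. Here too the match describes letters, and its relation to the difference between the compounds was not tested.

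Heat shock proteins are chaperones, most of them of the cytosol. Of 14 measured genes 8 were not called, 5 were lower with 991, Hspa1b, Dnajb4, Hsph1, Hspa8 and Bag3 (-0.23 ± 0.07), and 1 was higher, the mitochondrial chaperone gene Hspa9 (0.12 ± 0.03). Hspa1b, the inducible Hsp70, was at 9.85 and 8.35 with 991, 10.55 and 10.32 with AICAR, and 10.93 and 10.44 with vehicle (-1.33 ± 0.25, adjusted p = 0.00277). Its near copy Hspa1a can share probes with it, so the value may hold both. Here 991 stood apart from vehicle (-1.59 ± 0.25) and AICAR did not pass the test (-0.25 ± 0.25, adjusted p = 0.516), and the mean difference over the list was -0.06 in preparation 1 and -0.42 in preparation 2. Without preparation 2 no member was called, and without preparation 1 there were 5 lower. Other probe sets differed by -0.65 and 0.72 for Dnajb4 and by -1.51 to -0.31 for Hspa8.

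Targets of p53, the transcription factor of DNA damage, with the Gadd45 family were lower with 991 in 10 of 16 measured genes and higher in 1, with a median of -0.32. Sesn1, a stress-induced inhibitor of mTORC1 signalling, was at 8.29 and 8.36 with 991, 9.81 and 9.11 with AICAR, and 8.34 and 8.51 with vehicle (-1.14 ± 0.17, adjusted p = 0.000645), and of 3 other probe sets 2 differed by -1.13 and -1.10 and a dim one by 0.03. Gadd45g, a growth arrest gene, had the same arrangement, with 6.49 and 6.80 with 991, 8.41 and 8.44 with AICAR, and 6.33 and 6.54 with vehicle (-1.78 ± 0.25). Phlda3, an inhibitor of Akt, was instead below vehicle with 991 (-0.57 ± 0.07) and did not pass the test with AICAR (-0.02 ± 0.07, adjusted p = 0.851). The member that was higher with 991 was Gadd45a (0.48 ± 0.11), and the counts were 3 lower and 1 higher without preparation 1 and 8 lower without preparation 2.

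Among 14 targets of NRF2, the regulator of antioxidant genes, 7 were higher and 3 lower with 991. Osgin1, an oxidative stress-induced growth inhibitor, was at 12.73 and 12.71 with 991, 11.91 and 11.83 with AICAR, and 12.41 and 12.37 with vehicle (0.85 ± 0.05, adjusted p = 3.1e-06). Hmox1, heme oxygenase 1, differed by 0.58 ± 0.11 and Nqo1, a quinone reductase, by 0.39 ± 0.09. The 3 lower members were Keap1 (-0.32 ± 0.05), which restrains NRF2, and Gclc (-0.11 ± 0.03) and Gclm (-0.18 ± 0.03), the subunits of the enzyme that starts glutathione synthesis. AICAR lowered 9 and raised none of the 14 genes against vehicle, and 991 raised 2 and lowered 5. Leaving out preparation 1 left 3 higher and 2 lower, and leaving out preparation 2 left 4 higher and 1 lower.

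Glucose production genes were lower with 991 than with AICAR. Hepatocytes make glucose through enzymes that AMPK activators are known to restrain, and of 17 measured genes of gluconeogenesis and its regulators 8 were lower, none was higher and 9 were not called. G6pc, the catalytic subunit of glucose-6-phosphatase, which releases free glucose, was at 6.92 and 6.02 with 991, 9.47 and 7.9995 with AICAR, and 7.97 and 8.03 with vehicle. The 10 arrays with 991 ran from 5.89 through 6.40 to 7.14 and those with AICAR from 7.91 through 8.78 to 9.65, with no overlap. The difference was -2.27 ± 0.24 (4.81-fold, adjusted p = 8.38e-05), with -1.54 ± 0.24 for 991 (adjusted p = 0.00342) and 0.73 ± 0.24 for AICAR (adjusted p = 0.0607) against vehicle.

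Pck1, which makes phosphoenolpyruvate, was at 9.28 and 8.85 with 991, 10.84 and 9.88 with AICAR, and 9.05 and 9.20 with vehicle (-1.29 ± 0.26, adjusted p = 0.00437), with -0.06 ± 0.26 for 991 and 1.23 ± 0.26 for AICAR against vehicle. The arrays with 991 ran from 8.77 to 9.63 and those with AICAR from 9.71 to 11.03. Slc37a4, the transporter that carries glucose-6-phosphate to G6pc, was at 10.88 and 10.34 with 991, 11.70 and 11.12 with AICAR, and 10.91 and 10.50 with vehicle (-0.80 ± 0.06). Pcx, pyruvate carboxylase, differed by -0.47 ± 0.07. For Slc37a4 and Pcx too, AICAR was above vehicle (0.71 ± 0.06 and 0.46 ± 0.07) and 991 did not pass the test (adjusted p = 0.378 and 0.962). Against vehicle AICAR raised 8 and lowered none of the 17 genes, and 991 raised 3 and lowered 1. Without preparation 1 the direct comparison gave 4 lower and 2 higher.

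Of 16 genes of glycolysis and glucose uptake 6 were lower with 991 and 2 higher. Pkm, pyruvate kinase M, was at 8.998 and 8.70 with 991, 9.94 and 9.62 with AICAR, and 9.50 and 9.003 with vehicle (-0.93 ± 0.06, adjusted p = 4.59e-06). The phosphofructokinase genes Pfkp (-0.76 ± 0.06) and Pfkl (-0.66 ± 0.05, with other probe sets at -0.57 and 0.27) were lower as well, and against vehicle AICAR raised both. The 2 members that were higher with 991 are glucose transporters, Slc2a1 (0.57 ± 0.08) and Slc2a2 (0.47 ± 0.09). In insulin and IGF signalling 4 of 18 genes were lower and none higher, led by Irs1, the insulin receptor substrate, at 8.36 and 8.31 with 991, 9.02 and 9.16 with AICAR, and 9.01 and 9.34 with vehicle (-0.75 ± 0.09). The other 3 were Foxo1 (-0.34 ± 0.06), Igf1 (-0.22 ± 0.04) and Igfbp2 (-0.24 ± 0.05), and without preparation 1 there was 1 lower and 1 higher in this list.

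**Figure D2:**
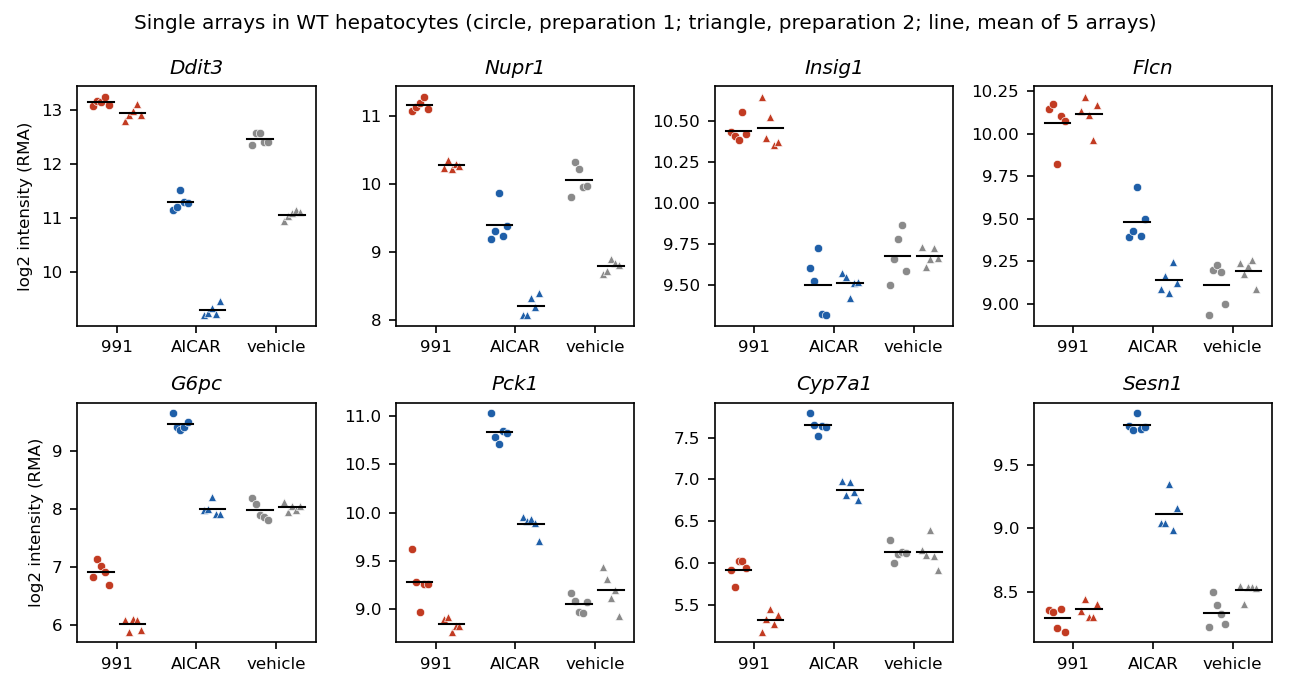
Log2 intensity (y axis) of 8 genes on each of the 30 arrays of WT hepatocytes with 991, AICAR and vehicle, with preparation 1 as circles, preparation 2 as triangles and the mean of 5 arrays as a line. The 991 and AICAR arrays do not overlap for any of the 8 genes, and under AICAR the arrays of preparation 1 lie above those of preparation 2 for all of them but Insig1.

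Bile acid genes were the list with the highest share of members lower with 991, 12 of 16, with none higher and a median of -0.32. Cyp7a1, the rate-limiting enzyme of bile acid synthesis, was at 5.92 and 5.32 with 991, 7.64 and 6.87 with AICAR, and 6.13 and 6.13 with vehicle (-1.64 ± 0.31, 3.12-fold, adjusted p = 0.00321). Cyp8b1, the sterol hydroxylase that sets the share of cholic acid, was at 8.11 and 7.01 with 991, 9.24 and 8.06 with AICAR, and 8.24 and 7.41 with vehicle (-1.09 ± 0.12). In both genes AICAR was above vehicle (1.13 ± 0.31, adjusted p = 0.0283, and 0.82 ± 0.12, adjusted p = 0.000913), and 991 did not pass the test (-0.51 ± 0.31 and -0.27 ± 0.12). AICAR raised 11 of the 16 genes over vehicle and lowered none, and 991 raised 1 and lowered 2.

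Nr0b2, the repressor SHP that damps bile acid synthesis, was also lower with 991, at 7.65 and 7.73, against 8.29 and 8.49 with AICAR and 8.45 and 8.32 with vehicle (-0.70 ± 0.18, adjusted p = 0.0203). Slco1b2, an uptake transporter, differed by -0.62 ± 0.13, Baat, which conjugates bile acids, by -0.60 ± 0.05, and the export pump Abcb11 by -0.48 ± 0.09, the last 2 named after their values were seen. Without preparation 1 there were 4 lower and without preparation 2 there were 9. Drug metabolism genes under the receptors CAR and PXR had 5 of 16 lower, led by Cyp3a25 (-0.57 ± 0.06), and 1 higher, Cyp3a13 (0.27 ± 0.05), while among 9 genes of the aryl hydrocarbon receptor Cyp1a1 (0.35 ± 0.07) and Nqo1 were higher with 991, and Ahr and Cyp1a2 (-0.26 ± 0.05) lower. The Cyp1a1 value rests on 1 array with 991 in preparation 2, at 7.63 where the other 4 lay between 5.96 and 6.15. Without this array the difference in that preparation was 0.14 in place of 0.46, and without preparation 2 the gene was not called (0.25, adjusted p = 0.101). Without preparation 1 the CAR and PXR list had 1 lower and 1 higher.

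Of 12 measured hepatocyte markers 1 lay below the median level of all genes. Of the 12, 5 were lower with 991 and none higher: Hnf4a (-0.33 ± 0.07), a master regulator of hepatocyte genes, Asgr1 (-0.24 ± 0.05), Cps1 (-0.19 ± 0.03), Cyp2e1 (-0.19 ± 0.04) and Apob (-0.16 ± 0.03). The mean level of the 12 was 12.55 and 12.51 with 991, 12.72 and 12.57 with AICAR, and 12.47 and 12.45 with vehicle, and Alb stood at 14.78 and 14.74 with 991, 14.80 and 14.76 with AICAR, and 14.78 and 14.74 with vehicle. Without preparation 1 there were 2 lower hepatocyte markers and 1 higher. The part of this shift in the bile acid and gluconeogenesis counts was not tested. In bulk RNA, fewer cells of a type and less RNA per cell cannot be told apart.

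Cholesterol synthesis genes were higher with 991. These genes are driven by SREBP2 when sterols run low, and of 20 measured members 9 were higher, none was lower and 11 were not called, with a median of 0.11. Insig1, which holds SREBP in the endoplasmic reticulum and is itself a target of it, was at 10.44 and 10.46 with 991, 9.50 and 9.52 with AICAR, and 9.68 and 9.68 with vehicle. It was 1.92-fold higher with 991 (0.94 ± 0.06, adjusted p = 1.97e-06), with no overlap among the 20 arrays, and 991 raised it over vehicle (0.77 ± 0.06) while AICAR did not pass the test (-0.17 ± 0.06, adjusted p = 0.0638). Msmo1, a sterol demethylation enzyme, was at 11.80 and 12.002 with 991, 11.07 and 11.21 with AICAR, and 11.47 and 11.74 with vehicle (0.76 ± 0.05), with 0.30 ± 0.05 for 991 and -0.46 ± 0.05 for AICAR against vehicle.

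Mvd (0.57 ± 0.09) and Idi1 (0.46 ± 0.07), enzymes of isoprenoid synthesis, were higher with 991 too. Both were below vehicle with AICAR (-0.31 ± 0.09 and -0.40 ± 0.07), and with 991 neither passed the test against vehicle (adjusted p = 0.114 and 0.605). Over the whole list 991 raised 5 genes and lowered none against vehicle, and AICAR raised none and lowered 4.

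Genes of fatty acid and triglyceride synthesis were split, with 5 of 22 higher and 4 lower. Elovl6, an elongase (0.46 ± 0.06), Acaca, acetyl-CoA carboxylase 1 (0.41 ± 0.06), and Dgat2, which makes triglycerides (0.40 ± 0.06), were higher with 991. So were Pklr (0.35 ± 0.07) and Me1 (0.14 ± 0.04). A second, dimmer probe set of Acaca differed by -0.34. Lpin1, a phosphatidate phosphatase, was lower, at 8.85 and 8.95 with 991, 9.69 and 9.33 with AICAR, and 8.42 and 8.23 with vehicle (-0.61 ± 0.18, adjusted p = 0.0321), as were Acacb (-0.32 ± 0.10), Gpam (-0.23 ± 0.07) and Thrsp (-0.22 ± 0.07). Without preparation 1 there were 3 higher and none lower.

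Fatty acid oxidation genes were split as well, 3 of 19 in each direction. Pdk4, a kinase that inhibits pyruvate dehydrogenase, was at 9.91 and 10.61 with 991, 9.44 and 8.76 with AICAR, and 8.30 and 7.80 with vehicle. Both compounds raised it, 991 by 2.21 ± 0.24 and AICAR by 1.05 ± 0.24, and the gap between them was 1.16 ± 0.24 (adjusted p = 0.00593), small in preparation 1 and large in preparation 2. Ppara, the nuclear receptor of this pathway, was at 8.98 and 8.9997 with 991, 9.94 and 9.99 with AICAR, and 9.15 and 9.38 with vehicle (-0.98 ± 0.10, adjusted p = 5.67e-05). The lipid droplet coat gene Plin2 (0.44 ± 0.05) and the dehydrogenase gene Acadl (0.19 ± 0.04) were higher with 991, and Cyp4a14 (-0.48 ± 0.07) and Acadvl (-0.21 ± 0.04) lower.

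Folliculin and its partners were higher with 991. Folliculin forms a complex with FNIP proteins on the lysosome, where it acts on the Rag GTPases and through them on the transcription factors TFEB and TFE3, and of 15 measured genes 7 were higher, 1 was lower and 7 were not called. Flcn was at 10.06 and 10.12 with 991, 9.48 and 9.14 with AICAR, and 9.11 and 9.20 with vehicle (0.78 ± 0.09, 1.72-fold, adjusted p = 0.000142). The 991 arrays lay between 9.82 and 10.22 and the AICAR arrays between 9.07 and 9.69, and AICAR did not pass the test against vehicle (0.16 ± 0.09, adjusted p = 0.264). Fnip2 was at 9.60 and 9.70 with 991, 8.84 and 8.80 with AICAR, and 8.80 and 8.95 with vehicle (0.83 ± 0.07, adjusted p = 1.08e-05).

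Rragd, a Rag GTPase and known TFEB target, was at 8.68 and 8.33 with 991, 8.04 and 7.40 with AICAR, and 8.02 and 7.74 with vehicle (0.78 ± 0.08). Fnip1, read after its values were seen, differed by 0.40 with a 95% interval of 0.10 to 0.71 and did not pass the test (adjusted p = 0.0648). The lower member was Tfec (-0.49 ± 0.08), a dim relative of TFEB. Among 34 lysosome and autophagy genes 9 were higher and 1 was lower with 991, Ulk1, the kinase that starts autophagy (-0.47 ± 0.10). Neu1, a sialidase, was at 9.69 and 9.85 with 991, 9.03 and 9.04 with AICAR, and 8.996 and 9.21 with vehicle (0.74 ± 0.06, adjusted p = 1.48e-05).

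Npc1, which exports cholesterol from the lysosome, differed by 0.75 ± 0.14, mainly in preparation 2 (9.95 with 991, 8.79 with AICAR) and less in preparation 1 (9.87 with 991, 9.54 with AICAR). Gla, alpha-galactosidase, was at 8.50 and 8.79 with 991, 8.14 and 8.09 with AICAR, and 7.94 and 8.31 with vehicle (0.52 ± 0.09, adjusted p = 0.00229). Without preparation 2, 4 genes of the lysosome list were higher and 2 lower. The promoter of Gla is shown for the letters CACGTG, the core read by TFEB and other basic helix-loop-helix factors, from chrX:134601156-134601255 (minus strand, RefSeq, GRCm38.p6), with both matches in capitals.
Gla: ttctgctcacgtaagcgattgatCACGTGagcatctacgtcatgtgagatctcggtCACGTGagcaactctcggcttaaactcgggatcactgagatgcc
The first began 227 bases before the start. The letters were in 9 of 32 promoters of the lysosome list (28.1%), in 4 of 19 promoters of the folliculin list (21.1%) and in 6.02% of all promoters. These matches describe letters as well, and their relation to the difference between the compounds was not tested.

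**Figure D3:**
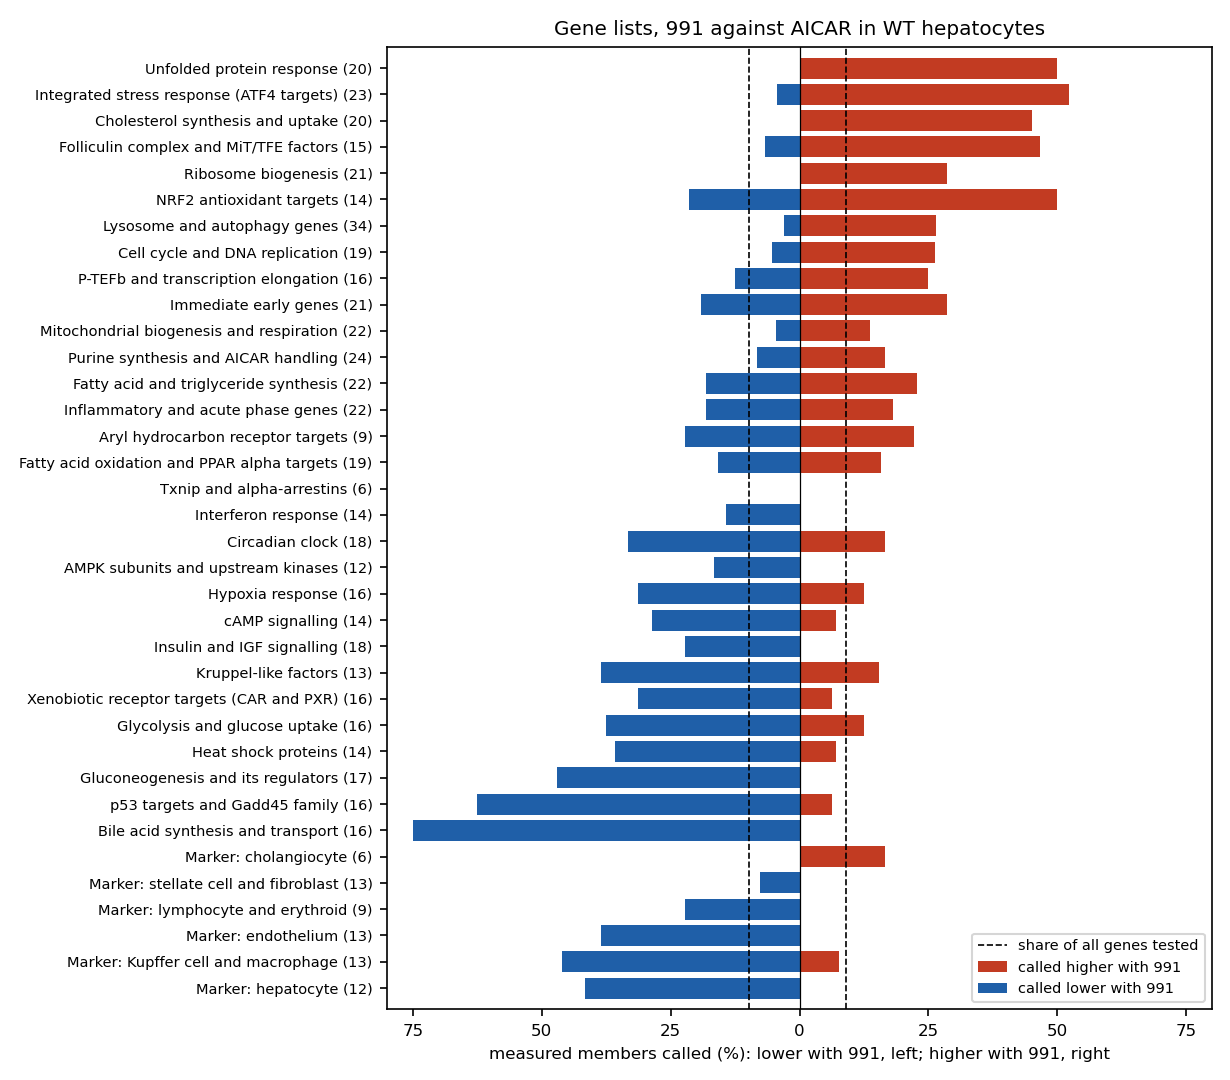
Share of the measured members of each gene list called higher (right) or lower (left) with 991 than with AICAR in WT hepatocytes, in percent, with the number of measured genes in parentheses and the share over all genes as dashed lines (9.05% higher, 9.72% lower). The integrated stress response (12 of 23), unfolded protein response (10 of 20) and NRF2 (7 of 14) lists reach furthest to the right, and the bile acid (12 of 16) and p53 (10 of 16) lists furthest to the left.

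Transcription factors of the immediate early class were called in both directions, 6 of 21 higher and 4 lower. Egr1, induced by growth factor and stress signals, was at 11.33 and 11.68 with 991, 12.90 and 12.88 with AICAR, and 10.11 and 9.84 with vehicle. Both compounds raised Egr1, 991 by 1.53 ± 0.21 and AICAR by 2.91 ± 0.21, and 991 stayed below AICAR by -1.38 ± 0.21 (adjusted p = 0.000716). Fos was at 8.96 and 8.97 with 991, 10.73 and 10.98 with AICAR, and 8.09 and 7.71 with vehicle (-1.89 ± 0.54, adjusted p = 0.0307), and its call was lost with either preparation left out. Fosb (-1.01 ± 0.21) and Fosl2 (-0.37 ± 0.07) were the other lower members. Ier3, an early gene of survival signalling, was higher, at 10.38 and 10.32 with 991, 9.25 and 9.40 with AICAR, and 9.97 and 9.77 with vehicle (1.03 ± 0.09). Without preparation 1 there were 4 higher and none lower.

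In the list of transcription elongation, P-TEFb is the kinase that releases paused RNA polymerase II, and 4 of 16 genes were higher and 2 lower. Ccnt2, a cyclin of P-TEFb, was at 9.71 and 9.83 with 991, 8.66 and 8.59 with AICAR, and 9.64 and 9.70 with vehicle (1.14 ± 0.11). Hexim1, the inhibitor of P-TEFb, was lower with 991 (-0.69 ± 0.13), and Ppp1r10 was the other lower member. A second Hexim1 probe set averaged 6.22 with 991 and 10.16 with AICAR, a difference of -3.94, so the size depends on the probe set. Of 4 other Ccnt2 probe sets 3 differed by 0.49 to 0.90 and 1 by -0.29. Mepce (0.36 ± 0.06), Ell2 (0.24 ± 0.06) and Aff1 (0.21 ± 0.07) were the other higher members. With either preparation left out 2 were higher, and without preparation 2 there was 1 lower.

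Of 13 Kruppel-like factors 2 were higher, Klf4 (0.90 ± 0.15) and Klf10 (0.58 ± 0.13), and 5 lower, Klf15 (-0.94 ± 0.13), Klf5, Klf12, Klf7 and Klf13 (-0.47 to -0.23). Klf15, a regulator of amino acid breakdown and glucose production, was at 7.60 and 7.64 with 991, 8.71 and 8.40 with AICAR, and 7.79 and 7.91 with vehicle. Without preparation 1 there was 1 higher and none lower, and without preparation 2 none higher and 7 lower. Of 18 clock genes 6 were lower with 991 and 3 higher. The lower ones included the activators Arntl (-0.77 ± 0.08) and Clock (-0.35 ± 0.07) but also the repressor Cry2 (-0.65). The repressors Bhlhe40 (0.53 ± 0.05) and Ciart (0.58 ± 0.09) were higher. Fewer clock genes were called in each direction without preparation 1. Of 16 hypoxia genes 5 were lower with 991, and 2 were higher, Hif1a (0.53 ± 0.05) and Slc2a1. Egln3, an oxygen sensor that marks HIF for decay, was at 8.24 and 7.89 with 991, 9.31 and 9.19 with AICAR, and 9.04 and 8.46 with vehicle (-1.18 ± 0.09).

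Inflammatory and acute phase genes were called in both directions, 4 of 22 higher and 4 lower with 991, with a median of -0.06. The 4 higher ones include 3 chemokine genes. Cxcl1, a neutrophil attractant, was at 10.94 and 11.31 with 991, 9.07 and 9.83 with AICAR, and 11.43 and 11.78 with vehicle (1.67 ± 0.12, adjusted p = 5.5e-06), and both compounds lay below vehicle (-0.48 ± 0.12 and -2.15 ± 0.12). The monocyte attractants Ccl7 (1.46 ± 0.07) and Ccl2 (0.59 ± 0.12) were also higher with 991. AICAR lay below vehicle for both (-0.74 ± 0.07 and -0.56 ± 0.12), and 991 raised Ccl7 (0.72 ± 0.07). A further Cxcl1 probe set differed by 1.81 and another by 0.34. The other higher member was Stat3 (0.29 ± 0.08). The lower ones were Nfkbia (-0.65 ± 0.08) and Tnfaip3 (-0.52 ± 0.07), inhibitors of NF-κB, Crp (-0.42 ± 0.06) and Icam1 (-0.28 ± 0.08). Interferon genes were called in 2 of 14, Ifit1 (-0.90 ± 0.13) and Irf9 (-0.43 ± 0.08), both lower. This share is not above the 18.8% of all genes called.

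Among markers of other liver cells, those of Kupffer cells and endothelium had more members lower than higher with 991. Of 13 Kupffer cell and macrophage markers 6 were lower (Cd163 by -0.56 ± 0.09) and 1 higher, Cd68 (0.24 ± 0.08), with a mean level of 8.25 and 8.41 with 991, 8.47 and 8.597 with AICAR, and 8.21 and 8.57 with vehicle. Of 13 endothelial markers 5 were lower (Stab2 by -0.78 ± 0.07) and none higher, with a mean level of 6.64 and 6.82 with 991, 6.79 and 6.99 with AICAR, and 6.63 and 6.81 with vehicle. The stellate list had 1 of 13 lower (Reln, -0.79 ± 0.12), the lymphocyte and erythroid list 2 of 9 (Alas2 and Ptprc), and the cholangiocyte list 1 of 6 higher (Sox9, 0.43 ± 0.09). Over all genes 9.72% were lower and 9.05% higher. The markers lay below the median level of all genes (6.87) for 8 of 13 stellate, 6 of 13 endothelial, 4 of 6 cholangiocyte, 8 of 9 lymphocyte and erythroid, and 2 of 13 Kupffer genes. Their part in the inflammatory counts was not tested. With either preparation left out 3 Kupffer markers were lower, and without preparation 1 there were 2 endothelial ones. The inflammatory list had 2 higher without preparation 1.

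Of 24 genes of purine synthesis and AICAR handling 4 were higher and 2 lower with 991. Pfas, the enzyme of the fourth step of purine synthesis, was at 9.40 and 9.47 with 991, 8.77 and 9.07 with AICAR, and 9.29 and 9.58 with vehicle (0.51 ± 0.07, adjusted p = 0.00029). Ampd3, which deaminates AMP (0.52 ± 0.08), Adss (0.20 ± 0.04) and Aprt (0.16 ± 0.04) were the other higher members. Slc29a1, a transporter that carries adenosine and AICAR, was lower with 991 (-0.43 ± 0.10), as was the ectonucleotidase gene Nt5e (-0.20 ± 0.06). Without preparation 1 there was 1 higher and none lower.

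For ribosome biogenesis, 6 of 21 genes stood higher with 991 and none stood lower, by 0.17 to 0.31, with Wdr12 and Nop56 at the upper end, and AICAR lowered 8 of them against vehicle while 991 lowered 1. Without preparation 1 only 1 was called, and without preparation 2 there were 3. Of 19 cell cycle genes 5 stood higher with 991, led by Ccne1 (0.47 ± 0.07), and 1 stood lower, Rrm2, at 7.94 and 7.76 with 991, 9.50 and 8.32 with AICAR, and 7.84 and 7.85 with vehicle (-1.06 ± 0.23). Mitochondrial genes were called in 4 of 22, none beyond 0.22, a share near the 18.8% of all genes called. Of 14 cAMP signalling genes 4 were lower and Creb3l3 (0.19 ± 0.05) higher. Without preparation 1 these 3 lists had 2, 0 and 0 higher and 0, 0 and 1 lower, in the order given, and without preparation 2 they had 3, 1 and 0 higher and 1, 0 and 0 lower.

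None of 6 genes of Txnip and the other alpha-arrestins passed the test. Txnip, an inhibitor of glucose uptake, was at -0.41 and a 95% interval of -0.77 to -0.06 (adjusted p = 0.11). AMPK subunit and upstream kinase genes were called in 2 of 12, a share near the 18.8% of all genes called. These were the γ subunit genes Prkag3 (-0.78 ± 0.08) and Prkag2 (-0.31 ± 0.07), both lower with 991. Fewer were called with either preparation left out. Prkag3, known as the muscle γ subunit, was at 6.94 and 6.34 with 991, 7.81 and 7.03 with AICAR, and 7.59 and 6.86 with vehicle. Prkaa1 differed by -0.02 (95% interval -0.24 to 0.20) and Prkaa2 by 0.01 (-0.11 to 0.14) in WT cells.

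**Figure D4:**
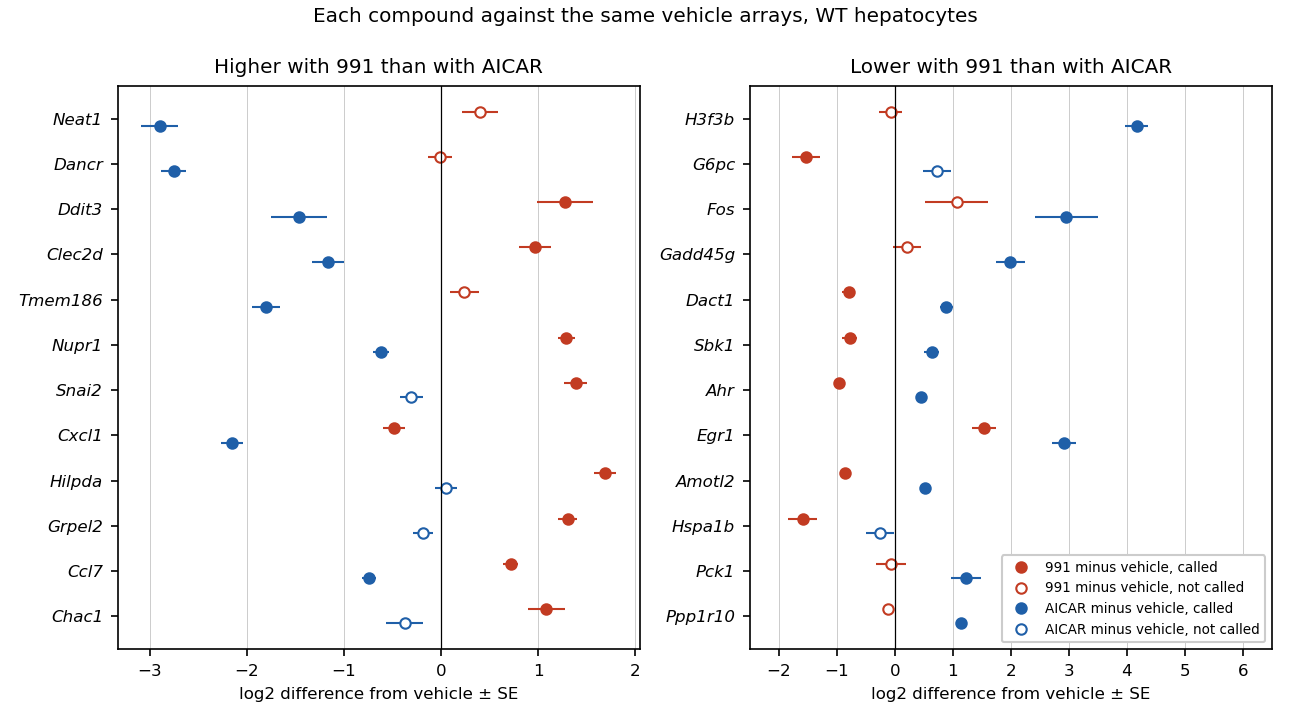
Log2 difference from vehicle (x axis, ± SE) of 991 and of AICAR in WT hepatocytes, with filled points for adjusted p under 0.05. The 24 genes are those chosen by size above the median level. Neat1, Dancr, H3f3b and Ppp1r10 passed the test with AICAR and not with 991, Hilpda, Grpel2, G6pc and Hspa1b with 991 and not with AICAR (G6pc with AICAR 0.73, adjusted p = 0.0607), and Ahr, Amotl2, Dact1 and Sbk1 with both, in opposite directions.

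The same comparison in dKO hepatocytes asks which differences between the compounds are seen without AMPK catalytic subunits. In these cells 3325 genes passed the test (18.3%), with 1372 (7.54%) at a higher level with 991 and 1953 (10.7%) at a lower one, and without dKO preparation 1 it was 1351 and without preparation 2 it was 1543. Of the WT calls 1931 were called in dKO cells in the same direction, 56.5% of the WT and 58.1% of the dKO calls, and 36 in the opposite direction. Over 18193 genes the WT and dKO differences had a Pearson r of 0.717 and a Spearman rho of 0.607, as a description across genes that share the arrays of each preparation. Among the 468 WT calls of at least 1.5-fold, 441 (94.2%) had the same sign in dKO cells, against 69.2% of all genes, and 357 were called there in the same direction.

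Several of the largest differences were also wide in dKO cells. Neat1 was at 12.90 and 13.04 with 991 and 9.14 and 8.84 with AICAR in dKO cells (3.98 ± 0.19), and the difference between genotypes did not pass the test (-0.67 ± 0.26, adjusted p = 0.325). H3f3b was at 6.54 and 6.23 with 991 and 10.03 and 10.73 with AICAR (-3.998 ± 0.20), and Dancr at 9.11 and 9.16 with 991 and 6.87 and 6.31 with AICAR (2.55 ± 0.12). Ddit3 differed by 2.81 ± 0.29 in dKO cells, at lower levels than in WT cells, 10.57 and 11.97 with 991 and 8.03 and 8.89 with AICAR. Pck1 (-1.20 ± 0.26), Gadd45g (-2.03 ± 0.25) and Egr1 (-2.42 ± 0.21) were likewise lower with 991 in dKO cells, with no call for a difference between genotypes.

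The interaction, the WT difference minus the dKO difference, was called for 284 genes (1.56%), 204 higher (1.12%) and 80 lower (0.44%). Its count rests on single preparations: it was 146 and 76 without WT preparations 1 and 2, and 110 and 429 without dKO preparations 1 and 2. Flcn separated the genotypes, with 0.78 ± 0.09 in WT cells and -0.18 ± 0.09 in dKO cells, where it was at 8.83 and 8.91 with 991 and 9.06 and 9.05 with AICAR (interaction 0.97 ± 0.13, adjusted p = 0.00329). Of the folliculin list 5 of 15 genes were higher in the interaction and none lower, among them Fnip2 (0.91, adjusted p = 0.000781) and Rragd (0.57, adjusted p = 0.0381). Of the cholesterol list it was 6 of 20 and none lower, led by Insig1, at 0.94 ± 0.06 in WT and -0.22 ± 0.06 in dKO cells (1.16, adjusted p = 4.02e-05), and with Msmo1 (0.66, adjusted p = 0.00109) and Idi1 (0.58, adjusted p = 0.0122).

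G6pc was lower with 991 in WT cells and not called in dKO cells, where it was at 8.52 and 9.16 with 991 and 8.63 and 9.52 with AICAR (-0.24 ± 0.24, interaction -2.03 ± 0.34, adjusted p = 0.013). No other gene of the gluconeogenesis list passed the interaction test. Nupr1 kept a smaller difference in dKO cells (0.67 ± 0.08, interaction 1.24 ± 0.12, adjusted p = 0.000468), as did Snai2, Hilpda and Grpel2 (0.61, 0.49 and 0.38). Chac1, at 1.46 ± 0.19 in WT and 0.33 ± 0.19 in dKO cells, did not pass the interaction test (adjusted p = 0.0666).

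Some genes had opposite signs in the genotypes. Pdk4 was higher with 991 in WT cells and lower in dKO cells (-1.03 ± 0.24, interaction 2.19, adjusted p = 0.00896), and Nfkbia was lower in WT and higher in dKO cells (0.55 ± 0.08, interaction -1.20, adjusted p = 0.000374), as was Nr0b2 (0.61 ± 0.18, interaction -1.31, adjusted p = 0.0298). Cxcl1 (2.82 ± 0.12), Ier3 (1.99 ± 0.09) and Ccnt2 (2.09 ± 0.11) had wider differences in dKO than in WT cells, with interactions of -1.14, -0.96 and -0.94. Of the 24 genes chosen by WT size above the median level, 21 were called in dKO cells in the same direction. In the interaction 9 of the 24 were called, where 1.56% of all genes were. The 24 were chosen by the WT difference, which is part of the interaction, so the choice favours such calls.

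**Figure D5:**
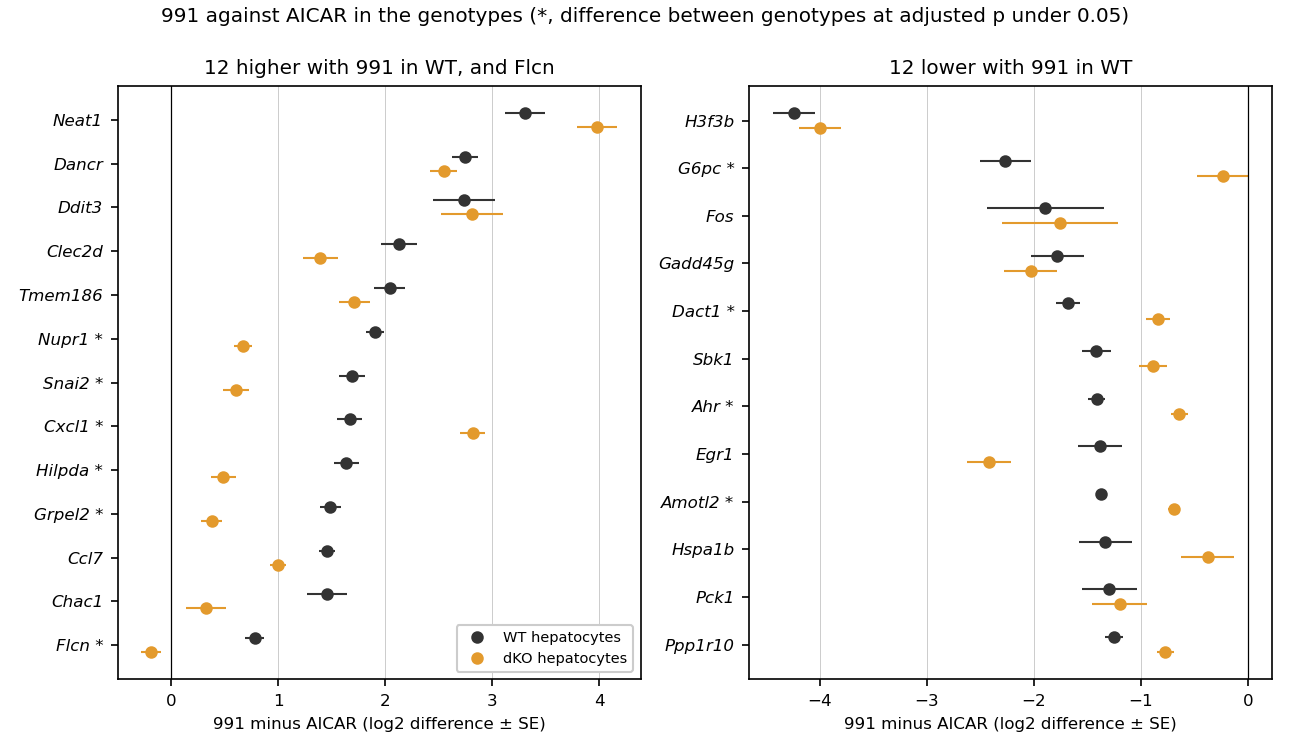
Difference between 991 and AICAR (x axis, log2 ± SE) in WT and dKO hepatocytes. Shown are the 24 genes chosen by WT size above the median level, and Flcn. A star marks a difference between genotypes with an adjusted p under 0.05. Neat1, Dancr, Ddit3 and H3f3b have similar positions in both genotypes, and Flcn (-0.18) and G6pc (-0.24) lie near 0 in dKO cells.

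In WT MEFs, at other doses of both compounds (10 µM 991 and 2 mM AICAR) and with technical replicates only, 5086 genes were called between 991 and AICAR (28.0%). Of the hepatocyte calls 819 were called in MEFs in the same direction (23.98% of the hepatocyte and 16.1% of the MEF calls) and 629 in the opposite direction, and the Pearson r over genes was 0.083. Of the 24 genes chosen by hepatocyte size above the median level, 9 were called in the same direction in MEFs. Among these 9 were Neat1 (1.34), Ddit3 (1.29), Nupr1 (0.98) and Chac1 (2.93). A further 10 were called in the opposite direction, among them Ppp1r10 (1.19) and Egr1 (0.65), and 5 were not called, among them H3f3b (0.18) and G6pc (-0.12). The integrated stress response list was higher with 991 in 14 of 23 genes in MEFs and lower in none, and the difference between the cell types was not tested, since their arrays were fitted apart.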

How the data were processed

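Gene expression was measured in mouse hepatocytes and MEFs on Affymetrix mouse genome arrays. The deposited values are log2 intensities of 45101 probe sets on 82 arrays, made by the authors with RMA in Partek, per the submitters' processing notes (versions not given in the sources used here). The labels state that 1 array per cell type had been excluded as an outlier. The members, gene lists and tests were chosen with earlier results of these data known.

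After removal of 64 control probe sets, 45037 remained. The platform annotation gave 34945 of them 1 gene symbol, 932 several and 9160 none, and 34741 were matched to current symbols by Entrez number. A gene with several probe sets (9010 genes) was represented by the one with the highest mean, which left 18193 genes. Of 633 list genes 51 were not analysed here.

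The 5 arrays of each preparation and treatment were averaged (4 in 1 vehicle set of dKO cells). The 12 means of the hepatocyte groups were fitted together with limma 3.58.1 in R 4.3.3, with preparation within genotype as a block, an intensity trend of the prior variance and 4 residual degrees of freedom, with Benjamini-Hochberg adjustment over all genes. Preparations are named as biological replicates by the labels, and same-numbered preparations deviated together (r of 0.607 over genes between 991 and AICAR in WT cells and 0.560 in dKO cells). Technical replicate numbers did not pair arrays (r of -0.203 to 0.117). MEF arrays are technical replicates fitted apart, so their p-values measure technical spread only.

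Named genes were the 12 with the largest called difference in each direction and the same sign in both preparations, Flcn, and up to 4 called genes of each list. Any other gene was named after its values were seen. On simulated data of 18193 genes for the WT comparison, 79% of 100 genes changed by 0.5 and 97% of 100 genes changed by 1 (log2) were recovered, with 9 false calls. The simulated noise was independent, without preparation effects or changes in other groups, so these rates may not hold for the real arrays. The number of arrays and of preparations limits the precision. Tables and figures were made with Python 3.11.15, pandas 2.3.3 and matplotlib 3.10.9.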

Additional observations from a re-analysis of the deposited data

Results flagged for a closer look

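For the 24 genes chosen by size and Flcn, 100 sets of 5 technical replicates were tested. Of these, 5 held an array far from the others, as chance gives in about 5% of such sets. Flcn was at 9.82 on 1 array with 991 (preparation 1), where the others lay between 10.07 and 10.17. Cxcl1 was at 11.45 on 1 array with 991 (preparation 2), against 11.26 to 11.30 on the others. With AICAR, Tmem186 was at 5.43 (others 5.99 to 6.21), Nupr1 at 9.87 (others 9.20 to 9.39) and Pck1 at 9.71 (others 9.90 to 9.96) on 1 array each.

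The difference between 991 and AICAR itself differed between WT and dKO hepatocytes for 27 of the 136 named genes, by the interaction term of the limma fit. Over all genes this term was called for 1.56%. Apart from Flcn the named genes were chosen by or after their WT difference, which is part of the term. This choice favours such calls, so the 2 shares cannot be compared. The WT difference was more positive, by the stated log2 value, for Pdk4 (2.19), Nupr1 (1.24), Insig1 (1.16), Hilpda (1.15), Grpel2 (1.11), Snai2 (1.09), Flcn (0.97), Fnip2 (0.91), Slc2a1 (0.73), Msmo1 (0.66), Neu1 (0.61), Ampd3 (0.61), Idi1 (0.58), Rragd (0.57) and Osgin1 (0.41). It was more negative for G6pc (-2.03), Nr0b2 (-1.31), Nfkbia (-1.20), Cxcl1 (-1.14), Prkag3 (-0.97), Ier3 (-0.96), Ccnt2 (-0.94), Irs1 (-0.89), Dact1 (-0.84), Ahr (-0.77), Amotl2 (-0.68) and Phlda3 (-0.48). For Cxcl1, Ier3 and Ccnt2 the difference had the same sign in both genotypes and was wider in dKO cells.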

How the results depend on the processing

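Called genes between 991 and AICAR in WT hepatocytes ranged from 3086 to 3818 under quantile normalization, a filter on dim genes, the mean of all probe sets, no intensity trend and a fit of the 6 WT means. The count was 6417 and 4638 within preparations 1 and 2 alone, which measure technical spread only, and 468 with a limit of 1.5-fold. Without the preparation as a replicate block, the counts were 1303 for WT, 1132 for dKO, 33 for the interaction, 166 for 991 against vehicle and 724 for AICAR against vehicle. With every array as a sample they were 6976, 7144, 3231, 5765 and 7686, in the same order, and with technical number as a further replicate block 6777, 6957, 2940, 5426 and 7437. Leaving out 1 preparation gave 1296 to 2010 calls for WT, 1351 to 1543 for dKO, 76 to 429 for the interaction, 117 to 537 for 991 against vehicle and 943 to 1603 for AICAR against vehicle. With 1 preparation left out, the lone sample is assumed to vary like the other groups, fewer samples leave 2 residual degrees of freedom, and the planned fit without 1 preparation of both genotypes was not run for the interaction, since none would remain. Leaving out 1 array gave 4280 to 4997 calls in MEFs, and technical number as a replicate block 5112.

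Of 136 named genes, 69 lost their call without the replicate block, among them Ddit3, Nupr1, Fos, Dact1, Hspa1b and Pck1. Without preparation 1, 50 lost it, among them Fos, Gadd45g, Egr1 and Pck1, and without preparation 2 it was 33, among them Fos and Hspa1b. Fos also lost it with no intensity trend. Only Ndufb8 changed sign, to -0.02 with the mean of all probe sets. The probe set that stands for Ndufb8 differed by 0.16 and its dimmer one by -0.20. Other probe sets existed for 65 of these genes, and 98 of those 114 probe sets had the same sign.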
